A study of Homo sapiens with 14 samples.

Results

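The 9 genes examined here act on the TGF-beta pathway from outside its ligand and SMAD core. They encode the ubiquitin ligases SMURF1, SMURF2 and RNF111, the SMAD corepressors TGIF1 and TGIF2, and PMEPA1, BAMBI, ZFYVE9 and LEMD3, which hold SMADs or receptors at membranes or block them. Their peaks were found by symbol in the authors' column for the gene of the nearest transcript, without use of any measured value. The genes themselves were chosen with earlier results of these data known. Together they were listed by 50 of the 88872 peaks in 4 lists from chromatin immunoprecipitation with sequencing (ChIP-seq), an assay that finds the genomic sites a protein occupies in crosslinked chromatin.

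All lists came from cells of the human line HL60, derived from an acute myeloid leukaemia and grown in RPMI medium with fetal calf serum. The groups were SKI in CRISPR/Cas9 control cells, a line labelled CTR-1 (1 list), SKI in unmodified cells (2 lists, replicates 1 and 2) and RUNX1 in unmodified cells (1 list). The other 10 of the 14 samples of the series, among them SKI in cells with SKI deleted, were not analysed here. No peak could therefore be checked for its loss in cells without SKI. Each protein was pulled down with 1 antibody. The labels do not say whether the lists came from separate cultures, so the spread between them may be technical. The lists held 14019, 54841, 14431 and 5581 peaks in that order, with median tags per peak of 61, 97, 56 and 56. How many reads each library held is not given in the sources used here. All peak positions are those listed, on hg19. Peak lists hold no expression values, so the identity of the cells was not tested against marker genes.

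In the TGF-beta pathway, receptor kinases phosphorylate receptor-activated SMADs, which enter the nucleus with SMAD4 and switch genes on or off. SKI and its relative SKIL bind these SMADs on DNA and recruit corepressors, so that they act as a brake. The brake is itself controlled by protein turnover: RNF111, also called Arkadia, marks SKI, SKIL and SMAD7 for degradation, while SMURF1 and SMURF2 are brought to the receptors by SMAD7 and mark them for degradation. RUNX1 is a DNA-binding factor of blood cell formation that can work together with SMADs.

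SKI peaks listed most of these genes, and RUNX1 peaks listed 2 of the 9, where 11.4% of protein-coding genes were listed by RUNX1. A SKI peak listed 7 of the 9 genes in every SKI list, namely SMURF1, SMURF2, RNF111, TGIF1, BAMBI, ZFYVE9 and LEMD3, where 23% of the 20056 protein-coding genes were listed in every SKI list. SKI peaks with 1 bp or more in common were merged to form a site, called shared where every SKI list had a peak in it. The genes had 8 shared sites, 2 of them at SMURF1 and 1 each at SMURF2, RNF111, TGIF2, BAMBI, ZFYVE9 and LEMD3, so that again 7 of 9 genes were reached, where 24.1% of protein-coding genes were. At 6 of these genes, all but SMURF1, the shared site lay within 1000 bp of a transcription start site (TSS), where 18% of protein-coding genes had such a site. PMEPA1 was listed by no peak of any list. With each list reduced to the 5581 peaks of lowest p-value, 2 of the 9 genes were in every SKI list, where 8.44% of protein-coding genes were, and 3 had a shared site, where 8.63% did. These are counts of genes chosen with earlier results of these data known, so they carry no test.

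To show the letters at the start itself, the sequence is given for the 4 genes with a shared promoter site and a single start in the RefSeq promoter table (GRCh38.p14, another build than that of the peaks, with no coordinates converted). Each runs from 250 bases before the start to 50 after it. At the shared sites, the deposited distances of BAMBI fall inside this stretch, and those of SMURF2 fall inside it toward its upstream end. The lists imply different starts for SMURF2 (given below), so its summits may lie beyond the stretch. The deposited distances of ZFYVE9 and of the strongest LEMD3 peaks fall outside it. Each distance is a single value per peak, and the peaks themselves are wide and can reach into the stretch. Capitals mark CAGAC, the core of the SMAD box, TGACA, the core recognised by TGIF proteins, and the RUNX cores TGTGGT and TGCGGT, on either strand.
LEMD3 (chr12:65169333-65169632, + strand): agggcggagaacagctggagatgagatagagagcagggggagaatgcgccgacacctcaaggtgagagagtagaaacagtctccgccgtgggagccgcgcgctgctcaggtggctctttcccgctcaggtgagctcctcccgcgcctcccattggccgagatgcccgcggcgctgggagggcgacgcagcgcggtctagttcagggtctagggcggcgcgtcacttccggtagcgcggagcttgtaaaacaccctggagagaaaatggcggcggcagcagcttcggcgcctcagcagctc
BAMBI (chr10:28677271-28677570, + strand): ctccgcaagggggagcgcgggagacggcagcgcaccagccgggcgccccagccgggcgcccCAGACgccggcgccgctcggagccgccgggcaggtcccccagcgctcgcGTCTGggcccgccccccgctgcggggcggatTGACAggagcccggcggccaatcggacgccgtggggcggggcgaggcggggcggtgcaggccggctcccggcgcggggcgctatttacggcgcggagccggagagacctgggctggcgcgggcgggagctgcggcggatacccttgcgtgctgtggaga
SMURF2 (chr17:64662258-64662557, - strand): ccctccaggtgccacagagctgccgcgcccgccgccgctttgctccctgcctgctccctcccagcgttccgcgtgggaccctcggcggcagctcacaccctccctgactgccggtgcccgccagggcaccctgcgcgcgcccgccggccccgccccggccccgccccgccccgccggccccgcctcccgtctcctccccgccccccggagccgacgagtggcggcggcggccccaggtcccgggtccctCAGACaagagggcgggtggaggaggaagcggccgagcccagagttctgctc
ZFYVE9 (chr1:52141839-52142138, + strand): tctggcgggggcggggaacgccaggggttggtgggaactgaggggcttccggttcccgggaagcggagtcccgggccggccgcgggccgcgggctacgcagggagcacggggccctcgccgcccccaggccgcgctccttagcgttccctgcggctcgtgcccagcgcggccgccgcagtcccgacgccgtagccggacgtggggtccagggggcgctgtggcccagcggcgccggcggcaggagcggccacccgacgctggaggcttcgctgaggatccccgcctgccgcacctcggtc

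The BAMBI window held 2 copies of CAGAC and 1 of TGACA, and the SMURF2 window held 1 copy of CAGAC. The LEMD3 and ZFYVE9 windows held none of the motifs, which says nothing of the letters under their SKI summits. Both windows of RNF111 held CAGAC, with 1 and 2 copies, and neither window of TGIF2 did. Of 35116 promoter windows of this length, 45.3% held CAGAC and 38.9% held TGACA, so either motif is common by its letters alone. The RUNX core TGTGGT was in 13.1% of all windows and TGCGGT in 7.29%, and neither was in a window of the 6 genes with a shared promoter site. TGTGGT was in the SMURF1 window and in 1 of the 7 TGIF1 windows. The 8-base SMAD palindrome GTCTAGAC was in 0.202% of all windows and in none of those of the 9 genes. The windows of LEMD3, BAMBI, SMURF2 and ZFYVE9 had a GC content of 65.3%, 80.0%, 79.3% and 78.3%, above the median of 58.7% over all windows. A match is a description of these letters and not a site of binding.

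**Figure D1:**
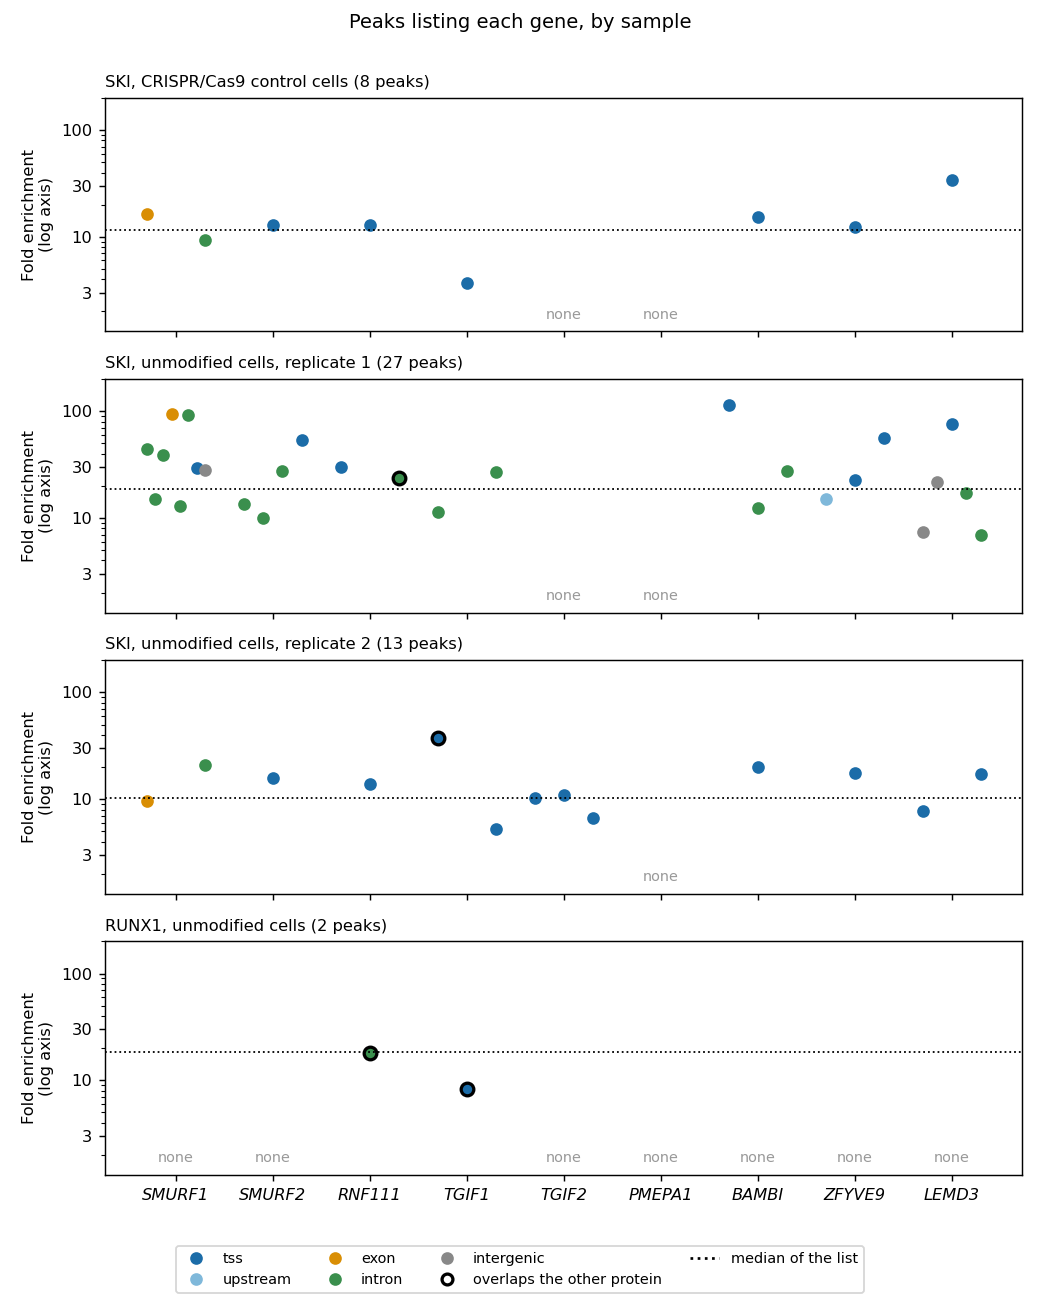
Fold enrichment (vertical, log axis) of every peak that listed 1 of the 9 genes (horizontal), with a panel for each list, a colour for the authors' position class and a dotted line at the median of the whole list. Rings mark SKI peaks that overlap a RUNX1 peak, or RUNX1 peaks that overlap a SKI peak. SKI peaks numbered 8 in control cells, 27 in unmodified cells, replicate 1, and 13 in replicate 2. A ringed peak each lay at TGIF1 and RNF111 in the SKI panels.

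The ubiquitin ligase genes differed in where SKI lay. SMURF1 was the gene with the most peaks, 12 in all, and the one whose shared sites were inside the gene. The first shared site (chr7:98717980-98718781, exon class, about 23 kb from the listed TSS) had a SKI fold enrichment of 16.3 in control cells, 95.1 in unmodified cells, replicate 1, and 9.62 in replicate 2. Fold enrichment is the peak caller's own value, and lists differ in depth and length, so it is read only within a list. By rank the site stood in the top 30.5% of peaks in control cells, 2.51% in replicate 1 and 55.1% in replicate 2. The second shared site (chr7:98739647-98740334, intron class, 1543 to 1657 bp downstream of the listed TSS) had a fold enrichment of 9.30 in control cells, 91.9 in replicate 1 and 21.0 in replicate 2, and stood in the top 65.9%, 2.87% and 13.9% of these lists. Of these sites the exonic one was thus the stronger in control cells and the intronic one the stronger in unmodified cells, replicate 2, while replicate 1 held them close together.

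At the SMURF1 start itself, a SKI peak at -18 bp was present in unmodified cells, replicate 1, alone (fold enrichment 29.4, 208 tags). Replicate 1 held 8 SMURF1 peaks in all, as many as or more than in all but a small share of genes: 4.09% of the 13532 protein-coding genes named in that list had at least as many. Its other 5 SMURF1 peaks had fold enrichments from 12.8 to 44.1.

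SMURF2, by contrast, had its shared site at the promoter (chr17:62656816-62659006). SKI fold enrichment there was 12.9 with 39 tags in control cells, 53.7 with 563 tags in unmodified cells, replicate 1, and 15.7 with 97 tags in replicate 2. The deposited distances were -227 bp in control cells, -230 bp in replicate 1 and -189 bp in replicate 2, all to the same transcript. They are used as deposited and are approximate. The summits lay at 62658425 in control cells, 62658407 in replicate 1 and 62658188 in replicate 2. Counted from these summits, the distances of control cells and replicate 1 give nearly the same start, and that of replicate 2 gives another. Which of them is right was not tested. Further SMURF2 peaks were intronic, 3 in number, and were found in replicate 1 alone, with fold enrichments from 9.96 to 27.8.

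RNF111, whose product degrades SKI itself, had a shared promoter site (chr15:59279485-59280803). Its SKI fold enrichment was 12.9 in control cells, 29.9 in unmodified cells, replicate 1, and 13.7 in replicate 2, with 83, 341 and 93 tags. The deposited distances were 75 bp in control cells, 33 bp in replicate 1 and 24 bp in replicate 2, and the summits lay within 59 bp of each other. In rank the site was middling, in the top 43.3%, 28.6% and 31.5% of the lists.

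At the corepressor genes TGIF1 and TGIF2, the lists differed in which peaks were called or which gene was named. At TGIF1, the largest peak of the 9 genes in unmodified cells, replicate 2, covered the promoter region (chr18:3447459-3450360), with a fold enrichment of 37.5, 771 tags and a place in the top 3.76% of its list. No peak overlapped it in control cells, where the sole TGIF1 peak (chr18:3451719-3452585) had a fold enrichment of 3.73, in the lowest ranks of the list (99.7%). That weak peak overlapped a second one of replicate 2, with a fold enrichment of 5.29. TGIF1 was in every SKI list through this weak peak: with peaks under a −log10 p of 10 dropped, 6 of the 9 genes were, and TGIF1 was not among them.

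Replicate 1 of the unmodified cells listed TGIF1 at 2 intronic peaks upstream (fold enrichments 11.3 and 27.1) and had no peak over the promoter region. The rows of this list are numbered as if taken from a longer table, and 72.9% of the numbers are present. Exactly 1 row number is skipped between the peak before the TGIF1 promoter and the next one after it. Such gaps are not particular to TGIF1. Numbers are also skipped just before peaks of BAMBI (4 numbers), RNF111, SMURF1 and SMURF2, so the peak counts of replicate 1 there share this limit. What the skipped rows held was not analysed here. At TGIF1, a lack of signal in replicate 1 therefore cannot be told apart from a filtered row.

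TGIF2 was named by 3 peaks, all in unmodified cells, replicate 2, at 4, 177 and 486 bp past the listed starts, with fold enrichments of 10.4, 11.0 and 6.72. In the other SKI lists the same region was covered by a single wide peak that listed the readthrough transcript TGIF2-C20orf24, which starts next to TGIF2. Taken by position, it was 1 shared site (chr20:35201249-35204389), with a fold enrichment of 20.2 and 260 tags in control cells, 70.2 and 1052 tags in unmodified cells, replicate 1, and at most 11.0 and 65 tags per peak in replicate 2. With the readthrough counted as TGIF2, a choice made after seeing the data, 8 of the 9 genes were listed in every SKI list. The lists thus differed at TGIF2 in the gene named and in the number of peaks called over the region.

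BAMBI encodes a decoy receptor that lacks a kinase domain, and it is a known target of the pathway it inhibits. Its shared site covered the start (chr10:28965571-28967805), at deposited distances of -75 bp in control cells, -8 bp in replicate 1 and 35 bp in replicate 2. All were to the same transcript, and the summits lay within 57 bp of each other. Those of control cells and replicate 2 were at 28966201 and 28966212. As at SMURF2, the distances thus imply different starts, and their change of sign is not read as a shift of the summit. SKI fold enrichment was 15.2 with 37 tags in control cells, 113 with 449 tags in unmodified cells, replicate 1, and 19.9 with 51 tags in replicate 2. Within replicate 1 the value of 113 was the highest of the 9 genes and stood in the top 1.20%, whereas in control cells the site was in the top 34.0%. Replicate 1 alone also held BAMBI peaks of intron class at 1889 and 3033 bp, with fold enrichments of 12.4 and 27.8.

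LEMD3, also called MAN1, is a protein of the inner nuclear membrane that binds SMADs and restrains them. Its shared site (chr12:65562740-65565201) had a fold enrichment of 33.9 with 353 tags in control cells, 76.4 with 805 tags in unmodified cells, replicate 1, and 17.4 with 113 tags in replicate 2. It ranked best of the 8 shared sites by its worst list, with places in the top 7.55% of peaks in control cells, 5.12% in replicate 1 and 20.7% in replicate 2. The deposited distances were 1000, 983 and 961 bp in these lists and the summits fell within 21 bp of each other, so the strongest SKI signal was about 1 kb past the start. Replicate 2 also had a second, weaker peak of 7.67 at 1 bp from a start. Of the genes outside the pathway lists, those with the most similar best ranks over the 4 lists were BEX1, ELF2 and AVIL, at Euclidean distances of 2.16, 2.80 and 2.87 percentage points.

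ZFYVE9, also called SARA, encodes a protein of early endosomes that presents SMADs to the receptors. Its shared promoter site (chr1:52607292-52608980) had a fold enrichment of 12.3 with 94 tags in control cells, 56.0 with 633 tags in unmodified cells, replicate 1, and 17.5 with 133 tags in replicate 2. The deposited distance was 185 bp in control cells, past the start, and -323 bp in replicate 1 and -338 bp in replicate 2, before it, and the summits spanned 515 bp. Over all 8980 shared SKI sites the span of the strongest summits had a median of 56 bp (quartiles 29 and 149 bp), and over the 8 sites of these genes it was 63 bp. ZFYVE9, TGIF2 (698 bp) and SMURF2 (237 bp) were above the upper quartile, and the other 5 sites spanned 21 to 67 bp.

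**Figure D2:**
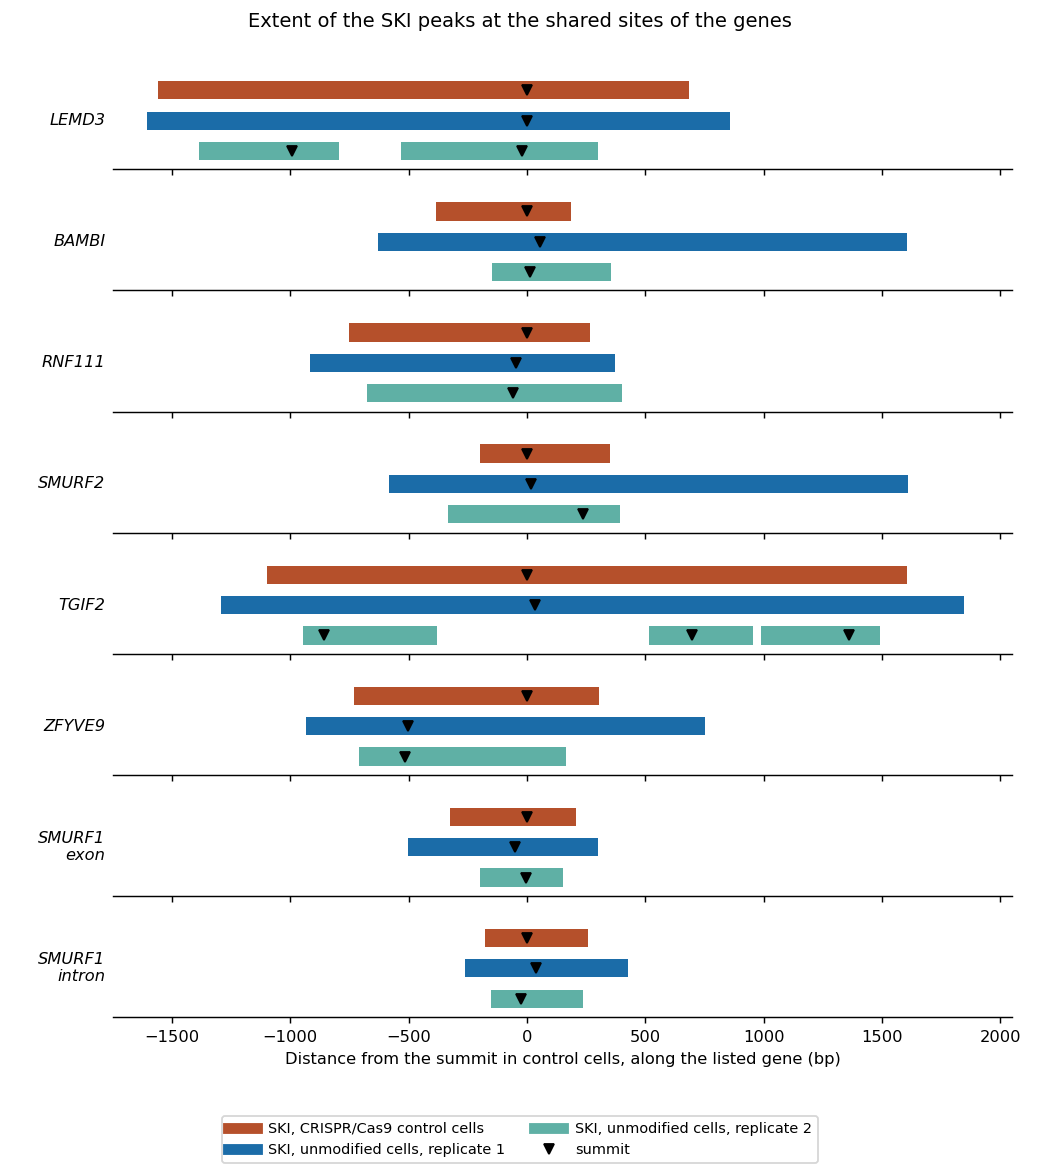
Extent of the SKI peaks (bars) and their summits (triangles) at the 8 shared sites, in bp from the summit in control cells and along the listed gene, with a row for each SKI list. Summits stand nearly above each other at LEMD3, BAMBI, RNF111 and the SMURF1 sites, are offset by 515 bp at ZFYVE9, and at TGIF2 the wide peaks of control cells and replicate 1 meet 3 narrow peaks in replicate 2.

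PMEPA1, a membrane protein gene whose product competes for SMADs and which is commonly induced by TGF-beta, was named by no SKI and no RUNX1 peak. Its protein-coding neighbours in the RefSeq table are CIMIP1 and ZBP1, which encodes a sensor of nucleic acids. The peaks about 1 kb past the ZBP1 start had a SKI fold enrichment of 44.3 in control cells, 59.0 in unmodified cells, replicate 1, and 19.8 in replicate 2. The RUNX1 peak there had 65.0. As each peak is assigned to a single nearest start, a peak near PMEPA1 could be listed under another gene: replicate 1 held a peak of intron class at -33887 bp from the ZBP1 start, with a fold enrichment of 10.9. Whether it lies in PMEPA1 was not tested, as no annotation of this build was used.

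By position class, most SKI peaks of these genes were at starts in control cells and in unmodified cells, replicate 2. In replicate 1, 15 of 27 were in introns (55.6%), where 30.5% of the whole list were. The share within 1000 bp of a TSS was 75% in control cells (6 of 8; 95% Wilson interval 40.9 to 92.9), 22.2% in unmodified cells, replicate 1 (6 of 27; 10.6 to 40.8), and 84.6% in replicate 2 (11 of 13; 57.8 to 95.7). The shares of the whole lists were 43% for control cells, 30% for replicate 1 and 48.5% for replicate 2. The intervals cover counting error only and treat peaks as independent, which several peaks of 1 gene are not. The whole-list share lies inside the interval for control cells and for replicate 1 and below it for replicate 2, where TGIF2, TGIF1 and LEMD3 gave 7 of the 13 peaks. Of the 30 SKI sites of these genes, 21 were present in a single list, where 38863 of all 55146 SKI sites were. The share of replicate 1 among all single-list sites is not given here. Of the 21, 20 were of replicate 1, the longest list, and 14 of these were intronic. Their fold enrichments ran from 6.88 to 44.1 (median 19.3), against 29.9 to 113 (median 73.3) at the 8 shared sites in the same list. Over the whole of replicate 1 the median was 14.9 for peaks that met neither other SKI list and 52.3 for those in shared sites, so the same difference held for the list as a whole.

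**Figure D3:**
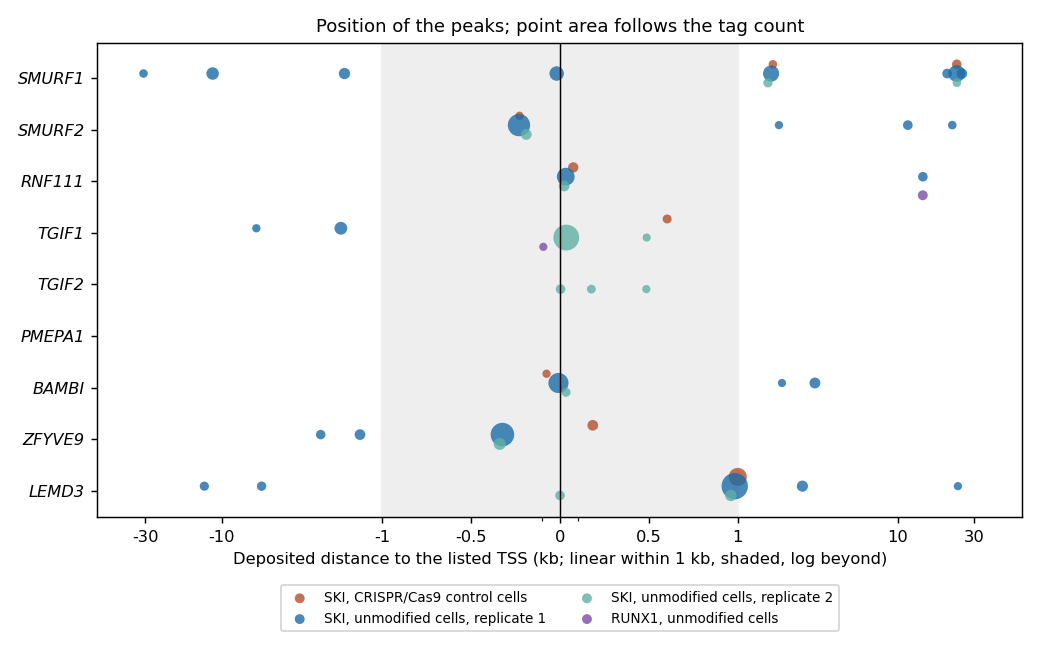
Deposited distance of each peak to the listed TSS (horizontal, in kb, linear within 1 kb and log beyond) for the 9 genes (vertical), with a colour for each list and point area by tag count. The large points within 1 kb are the shared promoter sites and the TGIF1 promoter peak of unmodified cells, replicate 2, while the points beyond 1 kb are nearly all of unmodified cells, replicate 1, except at the SMURF1 sites and the RUNX1 peak of RNF111.

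The best peaks of these genes ranked near those of other named genes in control cells and ahead of them in the unmodified lists. The best peak of each gene stood at a median rank of 43.3% in control cells (7 genes), 10.8% in unmodified cells, replicate 1 (7 genes), and 20.5% in replicate 2 (8 genes), where a lower value is a stronger peak. The same median over all protein-coding genes named was 46.9%, 33.3% and 44.9%. A best rank depends on how many peaks a gene has, and the comparison was not matched for that number. In replicate 1 these genes had from 2 to 8 peaks, where 57.1% of named protein-coding genes had at least 2 and 4.09% at least 8. The best ranks of single genes ran from 7.55% to 99.7% in control cells, from 1.20% to 32.5% in replicate 1 and from 3.76% to 44.9% in replicate 2. In control cells LEMD3 was first and TGIF1 last, and in replicate 2 TGIF1 was first.

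The genes listed by a RUNX1 peak were RNF111 and TGIF1. Both RUNX1 peaks overlapped a SKI peak, and each did so in a single SKI list. The share of all 5581 RUNX1 peaks that did so is not given here, so the overlap is not read as particular to these genes. Over the whole lists, 5052 SKI peaks of unmodified cells, replicate 1, and 3450 of replicate 2 overlapped a RUNX1 peak. At RNF111 the RUNX1 peak (chr15:59294362-59294961, fold enrichment 18.1, 72 tags) was intronic, 14308 bp past the TSS. It met a SKI peak of unmodified cells, replicate 1 (fold enrichment 23.9, 66 tags), with summits 3 bp apart. At TGIF1 the RUNX1 peak (chr18:3448183-3448712, fold enrichment 8.24, 35 tags) was at -93 bp from a TSS. It lay inside the wide SKI peak of replicate 2, but its summit was 1056 bp from the SKI summit. By rank within the RUNX1 list the peaks were at 50.9% and 90.7%, so the TGIF1 peak was among the weaker ones.

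None of the 8 shared sites overlapped a RUNX1 peak, where 33.5% of all 8980 shared SKI sites did. A count of 0 in 8 allows a share of up to 37.5% by the limit of 3 counts and of up to 32.4% by the 95% Wilson interval. The share of all shared sites lies between these limits, so that 8 sites are too few to place the genes apart from it or with it. Among the 4234 shared sites within 1000 bp of a TSS, 18.2% overlapped RUNX1, and 6 of the 8 sites were of that kind. The nearest RUNX1 summit was 14249 bp from the shared site at RNF111, 46776 bp at SMURF2, 55335 bp at TGIF2 and 109898 bp at LEMD3. It was 472247 bp from the intronic and 494019 bp from the exonic site of SMURF1, 495056 bp from ZFYVE9 and 580053 bp from BAMBI. The median over the 8 sites was 291072 bp, and over the 5976 shared sites without RUNX1 it was 83315 bp (quartiles 26536 and 208263 bp). Both SMURF1 sites were measured to the same RUNX1 peak, so this locus counts more than once in the median. The 5976 sites were not limited to those within 1000 bp of a TSS, so these medians are not matched in position.

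SKI peaks of the 9 genes with a RUNX1 peak were thus 2 in number, with fold enrichments of 23.9 in replicate 1 and 37.5 in replicate 2. Those without RUNX1 had medians of 12.9 in control cells (8 peaks), 27.4 in replicate 1 (26 peaks) and 12.4 in replicate 2 (12 peaks). The RNF111 peak with RUNX1 was below the median of the SKI peaks without it, and the TGIF1 peak was above all of those in its list. Of the SKI peaks of these genes, 0 of 8 in control cells overlapped RUNX1. The counts were 1 of 27 in replicate 1 and 1 of 13 in replicate 2. In these lists as a whole, 27.8%, 9.21% and 23.9% of SKI peaks did. Among their peaks of TSS class the shares were 15.7%, 6.81% and 12.8%, and among those of intron class 38.1%, 10.5% and 36.6%. Most SKI peaks of the 9 genes were of TSS class in control cells and replicate 2. The whole-list shares are therefore not matched in position class, and a difference from them was not tested.

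**Figure D4:**
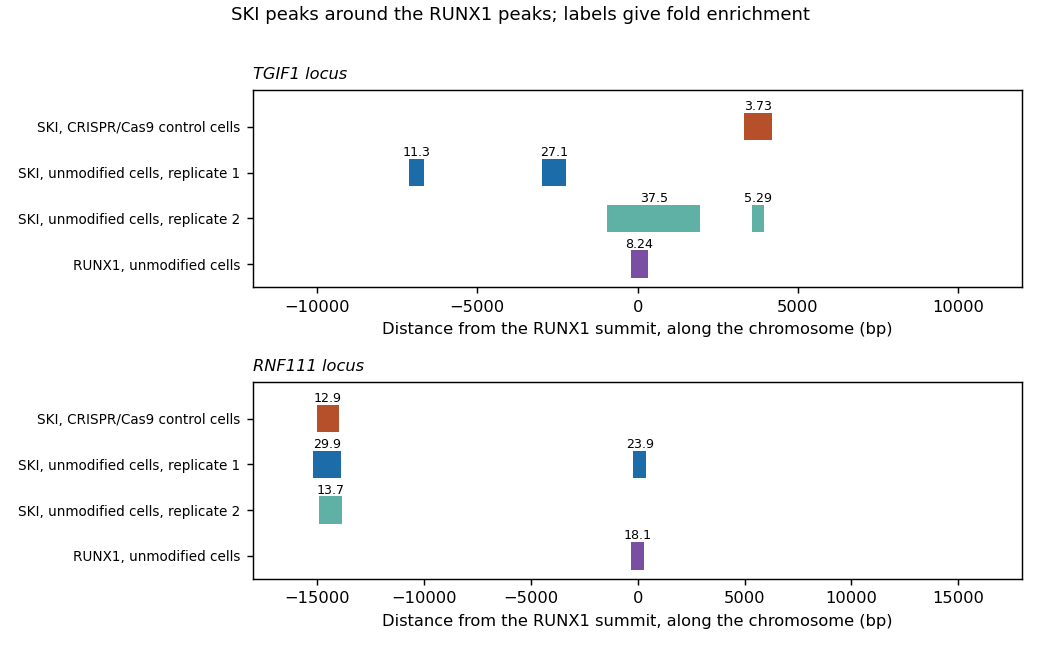
SKI and RUNX1 peaks around the 2 RUNX1 peaks of TGIF1 and RNF111, in bp from the RUNX1 summit along the chromosome, with a row for each list and the fold enrichment above each peak. At TGIF1 the RUNX1 peak lies under the SKI peak of 37.5 in unmodified cells, replicate 2, alone, and at RNF111 it lies under the SKI peak of 23.9 in replicate 1 alone, far from the shared promoter site.

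Near SMURF2, TGIF1 and TGIF2, RUNX1 was present with SKI at sites that listed another gene. Between 45 and 51 kb upstream of the SMURF2 start lay 3 SKI sites assigned to the pseudogene MINOS1P2. The farthest of them had a SKI fold enrichment of 29.5 in control cells, 95.7 in unmodified cells, replicate 1, and 18.01 in replicate 2. Its RUNX1 peak had 28.01. The middle one also had a RUNX1 peak, with a fold enrichment of 13.3. About 77 kb past TGIF1, a site assigned to RN7SL39P had SKI peaks of 32.2 in control cells, 42.6 in replicate 1 and 24.4 in replicate 2, and its RUNX1 peak had 25.7. About 57 kb past TGIF2, a site assigned to HNRNPA3P2 had a SKI peak of 47.4 in replicate 1 alone and a RUNX1 peak of 18.7. Within 100 kb of the ZFYVE9 start, the strongest SKI site was assigned to DNAJC19P7, with fold enrichments of 33.9 in control cells, 110.0 in replicate 1 and 19.6 in replicate 2, and no RUNX1 peak. Sites so far from a start are not shown to belong to any gene.

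Other genes of the pathway were listed too, some with stronger peaks. Of 24 other feedback and ubiquitin genes, 13 had a shared SKI site, 11 had one within 1000 bp of a TSS and 7 were listed by a RUNX1 peak (SMAD7, SKI, SKIL, NEDD4L, ITCH, USP15 and LDLRAD4). Of 19 ligand, receptor, SMAD and target genes, 13 had a shared site, 12 had one at a TSS and 7 were listed by a RUNX1 peak. Set beside the background shares of 24.1%, 18% and 11.4% given above, these counts describe lists chosen with earlier results known. The best shared sites of the other feedback genes ranked in the top 0.0143% at SKIL, 0.622% at SMAD6, 1.75% at SKI and 13.2% at SMAD7 in their worst list, all of them ahead of the 20.7% of LEMD3. SMAD6, an inhibitory SMAD gene, had SKI fold enrichments of 176 in control cells, 128 in unmodified cells, replicate 1, and 157 in replicate 2, with no RUNX1 peak. The SKI gene itself had 63.7 in control cells, 114 in replicate 1 and 52.3 in replicate 2. Of the core genes, the receptor gene ACVR1B had fold enrichments of 73.3 in control cells, 63.4 in replicate 1 and 78.5 in replicate 2, with a RUNX1 peak. The BMP receptor gene BMPR2 had 23.3 in control cells, 82.9 in replicate 1 and 26.0 in replicate 2, without one. ID1 and SMAD3 ranked in the top 16.7% and 17.6%.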

How the data were processed

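Of the 14 samples, the peak lists of 4 were used, grouped by title. Per the labels' protocols, formaldehyde-crosslinked cells were lysed and sonicated before immunoprecipitation, and the MicroPlex kit served for libraries. The submitters' processing notes name MACS 1.4, Bowtie2, bcl2fastq and deepTools, and hg19 and GRCh37 as builds, with no role for any. Per the file headers, each deposited peak has a −log10 p-value, a fold enrichment (a ratio) and a count of tags. Peaks were listed per sample, and the control library is not given in the sources used here. The deposited FDR column was left out, since its scale is not stated.

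The merging of peaks into sites was tried on simulated data, in which the sites lay well apart with at most 1 peak per list. Sites where several peaks of 1 list are joined by a wide peak of another, as at TGIF2, were not simulated. Against a RefSeq table (GRCh38.p14, names and neighbours alone) with 20056 protein-coding symbols, names were matched directly or by synonym for 96.6% of 13808 names, and all 9 genes matched. Ranks run from 1 for the highest fold enrichment and are given as a percent of the list. A gene's promoter distance is the deposited one, and a site took the smallest distance among its peaks.

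No test was made. The genes, lists and motifs were chosen with earlier results of these data known. Full positions were printed by rule for shared sites near a TSS, for up to 2 other shared sites per gene and for RUNX1 peaks. The other pathway genes named were up to 4 per list with the best worst rank, and nearby sites were chosen after their values were seen. As alternatives, peaks under a −log10 p of 10 were dropped, every list was reduced to its 5581 peaks of highest −log10 p, each SKI list was left out in turn, and other overlaps, distances and ranks were tried. The tools were pandas 2.3.3, numpy 2.4.6, matplotlib 3.10.9 and scipy 1.17.1 in Python 3.11.15.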

Additional observations from a re-analysis of the deposited data

How the results depend on the processing

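Of 48 alternative values for 11 results, 42 stayed within 1.5 times the count, the interval of the share or the range of the ranks reported. Some of them could not have moved. A count of 0 shared sites with RUNX1 stays at 0 when peaks are dropped. Leaving out a list cannot lower the number of genes listed in every list. The range for the ranks was that of the genes themselves, so the tally does not measure how stable the results are. These intervals are wide: the share near a TSS in control cells was 50% at 500 bp, against 75% at 1000 bp. When every list was reduced to 5581 peaks, and so held fewer of them, 2 genes had a SKI peak in every list (ZFYVE9 and LEMD3), 3 had a shared site within 1000 bp of a TSS (these and TGIF2), and 3 shared sites remained. Within 10 kb of the TSS, 1 gene had a RUNX1 peak (TGIF1). In unmodified cells, replicate 1, the share of peaks near a TSS was 44.4% at 2000 bp, and the median best rank by −log10 p was 0.573%, where 4622 peaks tie at 310. When 1 SKI list was left out, the genes listed in every list numbered 7 to 7, those with a shared promoter site 5 to 7, the shared sites 7 to 9 and those with RUNX1 0 to 0. TGIF1 entered without replicate 1 of the unmodified cells, and TGIF2 left without replicate 2. No paired analysis was possible because the 1 of the control cells names a line (CTR-1) and no replicate number is known to link them to the unmodified cells. Tag counts per peak were as low as 34, and the library depth is not known.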
